A study of Mus musculus with 3 samples.

Results

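Splicing factors and nuclear RNA-binding proteins were followed across 3 populations of mouse CD8+ T cells, innate cells with CXCR3, innate cells without it, and naive cells, each measured on 1 array. The genes were the protein-coding genes whose symbol begins with Snrp, Sf3a, Sf3b, Srsf, Hnrnp, Prpf or U2af and that had a probe set with 1 symbol. Of 69 RefSeq protein-coding genes with such a symbol, 54 had a value, out of 10191 genes measured in all. The 54 genes were read by 61 probe sets. Another 5 genes, Hnrnpa1, Hnrnpa1l2-ps2, Hnrnph3, Snrpa and Snrpn, were read only by probe sets that also carry other symbols, and the remaining 10, among them Hnrnpll, Sf3b2, Snrpf and Srsf7, were not analysed here.

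All 3 groups came from C57BL/6 animals of the CXCR3-GFP reporter line, in which green fluorescence reports expression of this chemokine receptor and which the labels also call CIBER mice; spleen and lymph node cells were used. The animals were otherwise naive and pathogen-free, and their age is not given in the labels. Cells were stained for CD44, CD62L and CD8 before sorting. Innate is the submitters' word for the CD8+ populations set against naive CD8+ T cells, and the RNA came from about 3 to 5 mice with 1 array per group, so the arrays hold no measure of the spread between animals.

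With 1 array per population there is no replicate check and no test between groups. Higher and lower therefore describe the values on these 3 arrays. All values below are log2 RMA expression values, on which a difference of 1 is 2-fold and one of 0.58 is 1.5-fold, or differences between such values. A gene was counted past a fold only if its higher value reached the median of its array over all genes, which lay between 7.63 and 7.65. Of the 54 genes, 40 reached the median on at least 1 array. Values of different genes come from different probes and were not set against each other. The arrays cannot separate fewer cells of a kind from less RNA per cell. The CD8 T cell markers Cd8a, Cd8b1, Cd3d, Cd3e and Cd3g read between 8.31 and 11.81 on the 3 arrays. Defining markers of other cells were mostly without a value here: 1 of 12 B cell, 2 of 5 CD4 and regulatory T cell, 1 of 4 gamma-delta T cell, 2 of 6 natural killer cell and 3 of 8 myeloid genes were measured. The log2 of the summed level of the CD4 and regulatory T cell genes was 8.27 on the CXCR3+ innate array, 8.57 on the CXCR3- one and 8.41 on the naive one. For the natural killer cell genes, one of which is Eomes, which CD8 T cells also express, it was 8.60, 8.61 and 8.13. Eomes itself read 7.92, 7.77 and 7.06, and the other gene, Ncr1, 7.19, 7.43 and 7.19. The B cell gene H2-Ab1 read 7.07, 7.21 and 7.04, and the gamma-delta T cell gene Sox13 7.75, 7.79 and 7.75. The summed level of the myeloid genes was 8.91, 8.92 and 8.91. The part of such cells in the results below was not tested.

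The spliceosome removes introns from pre-mRNA. Its building blocks are small nuclear ribonucleoproteins (snRNPs), in which a small nuclear RNA carries a ring of Sm proteins and further proteins that belong to one particle. U1 recognises the 5' splice site and U2, with the SF3A and SF3B complexes and the U2AF heterodimer, the branch point and 3' splice site, and the Prp proteins act in the U4/U6.U5 particle and in remodelling of the complex. SR proteins and hnRNPs bind the transcript itself and steer which sites are used, often in opposite directions. In T cells, alternative splicing of CD45 is a textbook marker of the step from naive to memory cells, and the hnRNP L family is known to take part in it.

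As a set, the genes read below naive cells on both innate arrays. In CXCR3+ innate cells 43 of the 54 genes were below naive, 1 was above and 10 were equal, against 34.2% of all genes below naive and 20.7% above. Their median difference was -0.16, with quartiles of -0.28 and -0.01, and the median of all genes was 0.00. In CXCR3- innate cells 46 were below naive, 1 was above and 7 were equal, against 36.3% of all genes below and 21.6% above, and the median was -0.27 with quartiles of -0.42 and -0.07, again beside 0.00 over all genes. Both comparisons use the same naive array. A difference of at least 0.25 downward was read in 18 genes of the set in CXCR3+ innate cells, or 33.3%, against 8.21% of all genes, and in 30 in CXCR3- innate cells, or 55.6%, against 12.4%. The differences were small: none of the 54 genes reached 2-fold in any of the 3 comparisons. Of all genes, 0.0981% were lower and 0.137% higher by that size in CXCR3+ innate minus naive, and 0.226% lower and 0.0196% higher in CXCR3- innate minus naive. Between the innate populations 0.147% were higher and 0.00981% lower in CXCR3+ cells. At 1.5-fold, no gene of the set was past the threshold in CXCR3+ innate minus naive, where 0.697% of all genes were lower and 0.5% higher. In CXCR3- innate minus naive 4 were lower, Srsf5, Hnrnpc, Snrpd3 and Srsf2, where 1.6% of all genes were lower, and none was higher, where 0.0981% of all genes were. Hnrnpab lay just outside at -0.584, Srsf2 just inside at -0.588. Srsf5 alone was past 1.5-fold after quantile normalization, after centring each array on its median, and after cyclic loess.

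**Figure D1:**
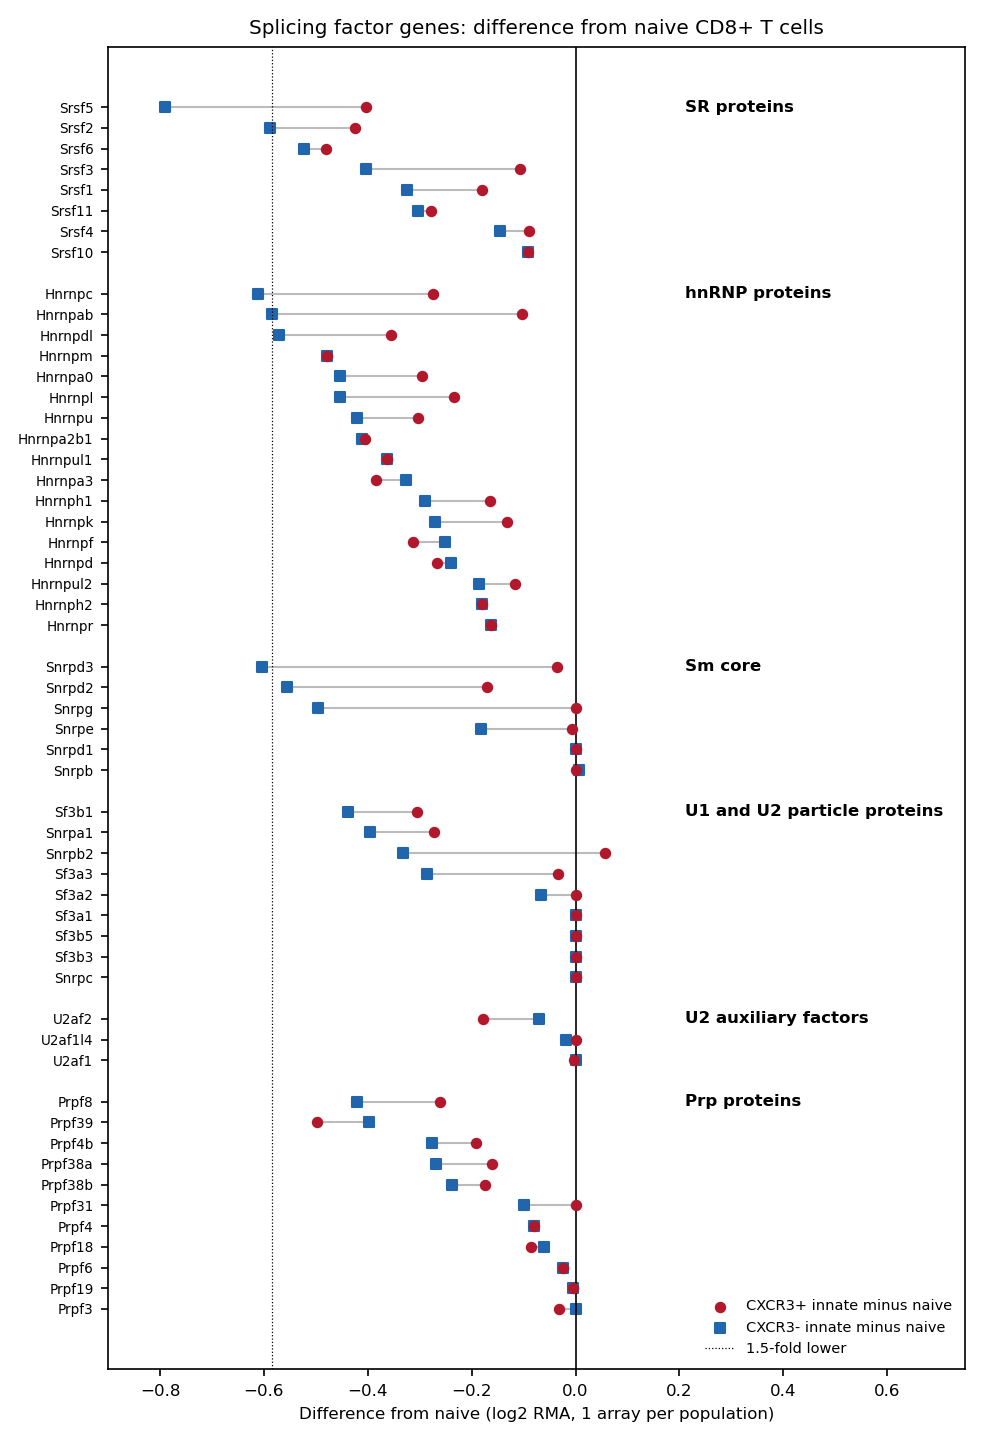
Difference from naive cells of each of the 54 measured genes, in log2 RMA units, grouped by role. Red circles are CXCR3+ innate minus naive, blue squares CXCR3- innate minus naive, each from 1 array per population, and the dotted line marks 1.5-fold lower. All SR and hnRNP genes lie left of 0 in both comparisons, while Sm core genes lie near 0 in CXCR3+ innate cells.

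SR proteins, which bind exonic enhancers and recruit the splicing machinery, were below naive in both innate populations in 8 of 8 measured genes. Their median difference was -0.23 in CXCR3+ innate and -0.36 in CXCR3- innate cells. Srsf5 read 9.64 on the CXCR3+ innate array, 9.25 on the CXCR3- one and 10.04 on the naive one. The naive value was the highest and the CXCR3- innate value the lowest, 0.79 below naive, which is 1.73-fold. Srsf2, also known as SC35 and a marker of nuclear speckles, read 10.01, 9.85 and 10.44 in the same order of arrays. Srsf6 read 8.75, 8.71 and 9.23, so that the innate values lay within 0.04 of each other and about 0.5 below naive. Srsf3, the smallest of the classical SR proteins, showed another spacing, at 8.97 on the CXCR3+ innate array, 8.67 on the CXCR3- one and 9.08 on the naive one. Here the CXCR3+ innate array was close to naive and the CXCR3- innate array stood apart. Srsf1, the founding splicing factor of the family, read 7.86, 7.71 and 8.04, and Srsf11 read 8.44, 8.42 and 8.72. Srsf4 and Srsf10 were within 0.15 of naive on each innate array. For Srsf10, listed at 6.91 on both innate arrays, passing the table's floor of 7 depended on the naive value.

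The hnRNP genes, which encode abundant proteins that package nascent transcripts and often silence splice sites, were below naive in 17 of 17 measured genes in both comparisons. Of these, Hnrnpa0 passed the table's floor of 7 through its naive value alone, and without it the count was 16 of 16. The median difference of the 17 genes was -0.27 in CXCR3+ innate and -0.36 in CXCR3- innate cells. The differences ranged from -0.48 to -0.10 and from -0.61 to -0.16. The sign held for all 17 hnRNP and 8 SR genes under those 3 scalings. Hnrnpc, whose product binds uridine tracts near 3' splice sites, read 9.13 on the CXCR3+ innate array, 8.79 on the CXCR3- one and 9.41 on the naive one. Its innate values were stepped below naive, with CXCR3- innate the lowest. Hnrnpdl, a paralog of the AU-rich element binding gene Hnrnpd, showed the same order at 9.17, 8.96 and 9.53. Hnrnpl, a regulator of CD45 splicing, read 8.56, 8.34 and 8.79. Hnrnpab read 10.13, 9.65 and 10.23, so only the CXCR3- innate array stood clearly below. By contrast, Hnrnpm had equal values of 8.49 on both innate arrays against 8.97 in naive cells. Hnrnpa2b1, known for sorting RNAs as well as for splicing, read 9.08, 9.08 and 9.49, and Hnrnpul1 read 9.04, 9.04 and 9.41. In these genes the innate populations were alike and naive cells higher. Hnrnpa3 went the other way between the innate arrays, at 7.96 on the CXCR3+ innate array, 8.01 on the CXCR3- one and 8.34 on the naive one. Hnrnpd and Hnrnpf were likewise lowest in CXCR3+ innate cells, at differences from naive of -0.27 and -0.31. For Hnrnpf this is the order of the mean over 5 probe sets, and its brightest probe set had the reverse order between the innate arrays.

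Several hnRNP genes were read by more than 1 probe set, and these did not always agree. The 5 probe sets of Hnrnpf differed from naive by between -0.67 and 0.00 in CXCR3- innate cells, and the brightest of them, at 9.25 in naive cells, gave 9.07 in CXCR3+ innate and 8.57 in CXCR3- innate cells. The 3 probe sets of Hnrnpk, a KH-domain protein that binds cytidine-rich RNA, differed by between -0.63 and 0.00 in that comparison, again with the brightest at -0.63. With the brightest probe set in place of the mean, Hnrnpf and Hnrnpk were also past 1.5-fold, which made 6 genes. Hnrnpu, the scaffold attachment factor, had 2 probe sets at -0.43 and -0.41. Near-identical copies exist for many hnRNP genes, and which copy a dimmer probe set reads could not be told from the annotation. Hnrnpa1, the best studied hnRNP, was read only together with such copies: its probe sets gave 10.20, 9.91 and 10.36, and 10.71, 10.59 and 10.87, for CXCR3+ innate, CXCR3- innate and naive cells. These shared probe sets were also highest in naive cells. Of the others read only in this way, Snrpn, from an imprinted locus, differed by -0.05 from naive on both innate arrays together with Snurf, and Snrpa of U1 read 8.79, 8.66 and 8.66 together with 2 predicted genes, the highest value being that of CXCR3+ innate cells.

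The Sm core, the ring that binds every spliceosomal small nuclear RNA except U6, differed from naive mainly on the CXCR3- innate array. Of 6 measured Sm genes, 3 were equal to naive in CXCR3+ innate cells and 3 were below by at most 0.17, for a median of -0.004. In CXCR3- innate cells the median was -0.34, with 4 below naive, 1 above and 1 equal. Snrpd3, which encodes SmD3, read 10.07 on the CXCR3+ innate array, 9.50 on the CXCR3- one and 10.11 on the naive one. Its CXCR3+ innate and naive values nearly coincided, and the CXCR3- innate value was 1.52-fold below naive. Snrpg had the same shape, at 8.75, 8.26 and 8.75. Snrpd2 read 7.21, 6.83 and 7.39, and Snrpe 7.48, 7.31 and 7.49. Snrpd1 was equal on all 3 arrays and Snrpb within 0.01. The small median in CXCR3+ innate cells took the other sign after quantile normalization and centring on the median. The median in CXCR3- innate cells stayed between -0.28 and -0.32 under all 3 scalings. These medians include Snrpd2, which was under 7 on the CXCR3- innate array. Without Snrpd2 the median in CXCR3- innate cells was -0.18 as deposited.

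**Figure D2:**
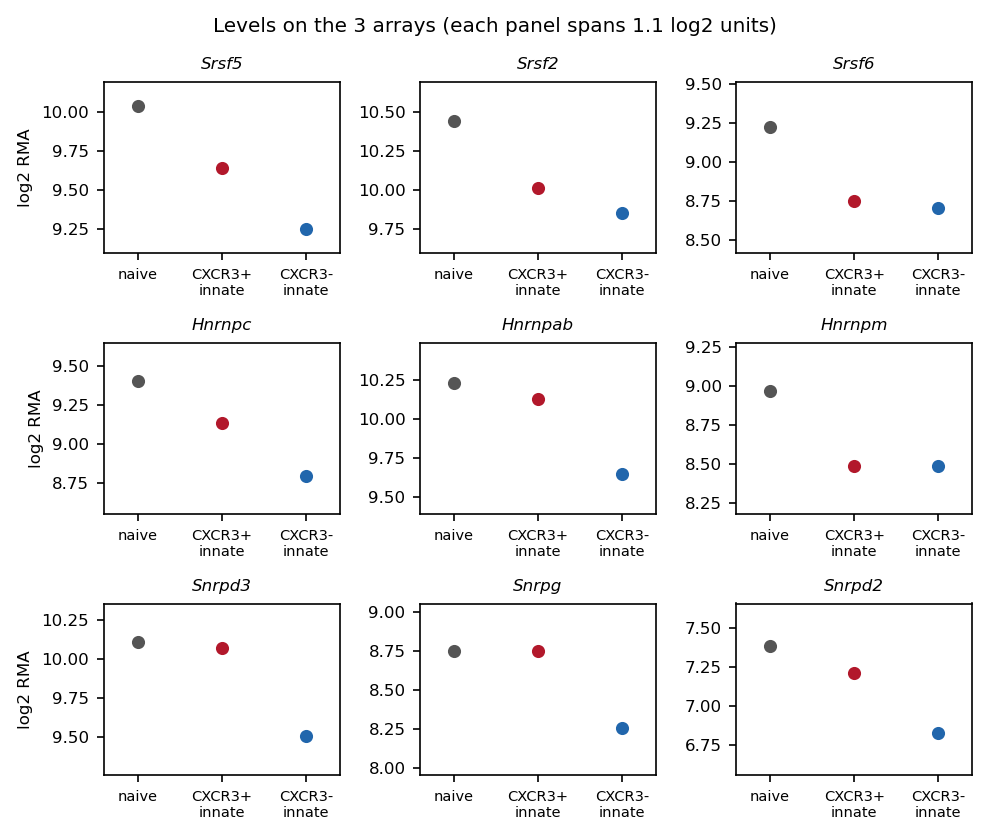
Levels of 3 SR genes (top), 3 hnRNP genes (middle) and 3 Sm core genes (bottom) in log2 RMA units, 1 point per array, with every panel spanning the same range. Srsf5 and Hnrnpc step down from naive to CXCR3+ innate to CXCR3- innate cells, Hnrnpm is equal in the innate populations, and Snrpd3 and Snrpg differ on the CXCR3- innate array.

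Proteins particular to U1 and U2 held members that did not differ at all beside others that did. Of 9 measured, 4 were equal on all 3 arrays, namely Snrpc of U1 and Sf3a1, Sf3b3 and Sf3b5 of U2. An exact equality after RMA is frequent, at 34.2% of all probe sets, and does not show that expression was the same. Sf3b1, the branch point clamp of U2 that is often mutated in blood cancers, read 9.81 on the CXCR3+ innate array, 9.68 on the CXCR3- one and 10.11 on the naive one. Both innate arrays were below naive, at differences of -0.30 and -0.44. The U2 proteins Snrpa1 and Snrpb2, which pair with each other on U2 RNA, differed in shape: Snrpa1 read 7.10, 6.98 and 7.38, stepping down as Sf3b1 did, and Snrpb2 read 7.28, 6.89 and 7.23, with only CXCR3- innate cells lower. Sf3a3 was close to Snrpb2 in shape, at 7.28, 7.03 and 7.31. The median difference of the 9 genes was 0.00 in CXCR3+ innate and -0.07 in CXCR3- innate cells, and the latter was above 0 after quantile normalization. The U2 auxiliary factors showed little: U2af1, which reads the AG at the 3' splice site, was within 0.01 on all arrays. U2af2, its partner on the polypyrimidine tract, read 8.42, 8.53 and 8.60, and U2af1l4 was within 0.02.

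Among the Prp genes 10 of 11 were below naive in each comparison, at medians of -0.09 in CXCR3+ innate and -0.10 in CXCR3- innate cells. Prpf8, the scaffold of the catalytic centre, read 9.68 on the CXCR3+ innate array, 9.52 on the CXCR3- one and 9.94 on the naive one. Prpf39, a U1-associated protein, had the largest difference of the 54 genes in CXCR3+ innate cells, at 7.56 against 8.06 in naive and 7.66 in CXCR3- innate cells. So this gene was lowest in CXCR3+ innate cells, unlike Prpf8. Prpf4b, a kinase of the splicing machinery, read 8.18, 8.10 and 8.37. Prpf38a read 7.72, 7.61 and 7.88. The other 7 Prp genes, Prpf38b among them, lay within 0.24 of naive, and Prpf3, Prpf4, Prpf6, Prpf18 and Prpf19 within 0.09. The median over the 25 SR and hnRNP genes was -0.27 in the first comparison and -0.36 in the second, and over the other 29 genes -0.02 and -0.08. Within the latter the Sm core, at -0.34 in the second comparison, was close to the SR and hnRNP genes. That closeness depended on Snrpd2, which was under 7 on the CXCR3- innate array. Over genes at 7 or above on every array the medians were -0.18 for the Sm core, -0.40 for SR and -0.34 for hnRNP genes. Whether these groups differ could not be tested with 1 array each. The groups were also not matched for level. A larger share of the SR and hnRNP genes than of the other 29 had a mean level of 8.5 or more. The median of all genes in CXCR3- innate minus naive was -0.13 between 8.5 and 9.5 and -0.25 at 9.5 or more. In the ranges under 8.5 that median was 0.00. The part of level in the contrast between the groups was not tested.

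The difference between the innate populations does not use the naive value of a gene. It is not independent of the naive array, since RMA brings arrays to a common distribution. Hnrnpa0, Prpf6 and Srsf10 also passed the table's floor of 7 through the naive array alone. CXCR3+ innate cells had the higher value in 33 of 54 genes, the lower in 9 and the same in 12, where 28.7% of all genes were higher and 22.3% lower. The median was 0.06, and 0.00 over all genes. None was lower by at least 0.25 in CXCR3+ cells, where 2.22% of all genes were, and 9 were higher by that much, where 6.38% of all genes were. No gene of the set was past 1.5-fold, a size that 1.0% of all genes reached upward and 0.0785% downward. The differences closest to it were 0.57 for Snrpd3, 0.50 for Snrpg, 0.48 for Hnrnpab, 0.39 for Srsf5 and Snrpb2 and 0.38 for Snrpd2. Of these, Snrpb2 and Snrpd2 were below 7 on the CXCR3- innate array. In the opposite direction the extremes were -0.11 for U2af2 and -0.10 for Prpf39. Over the 3 arrays, 28 of the 54 genes followed the order naive, CXCR3+ innate, CXCR3- innate from high to low, an order that 12.5% of all genes followed. These 28 comprised 7 SR, 11 hnRNP, 4 Prp, 3 Sm and 3 U2 genes. Counts of small differences depend on the scaling here. After centring or quantile normalization 23 to 24 of the 54 genes were below 0 between the innate populations, against 9 as deposited. Of all genes, 73.6% were below 0 after centring and 65.7% after quantile normalization, against 22.3% as deposited. As deposited, 12 of the 54 genes had equal values.

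The share of genes below naive also moved with the level of the gene. Over all genes, brighter genes more often lay below naive: 74.8% of the 428 genes with a mean level of 9.5 or more were below naive in CXCR3- innate cells, with a median of -0.25, and 18.7% of the 4169 genes under 7.5. In the same ranges 6 of 6 and 10 of 12 genes of the set were below naive, with medians of -0.59 and -0.16. Between 7.5 and 8.5 it was 14 of 17, against 39.6% of all genes, with medians of -0.18 and 0.00. Between 8.5 and 9.5 it was 16 of 19, against 70.4%, with medians of -0.36 and -0.13. In that range the share of the set below naive was therefore nearest to that of all genes. All 5 measured CD8 T cell markers were also below naive on the CXCR3- innate array, at -0.66 for Cd8a, -0.26 for Cd8b1, -0.52 for Cd3d, -0.30 for Cd3e and -0.93 for Cd3g. On the CXCR3+ innate array 4 of the 5 were below naive, at -0.29 for Cd8a, -0.24 for Cd8b1, -0.36 for Cd3e and -0.38 for Cd3g, and their part in these results was not tested. The table's floor also touched 6 genes with a value under 7 on some array. Hnrnpa0, Prpf6 and Srsf10 reached 7 on the naive array only, and Snrpa1, Snrpb2 and Snrpd2 were below 7 on the CXCR3- innate array only. Without these 6, 38 of 48 genes were below naive in CXCR3+ innate cells and 40 of 48 in CXCR3- innate cells, at medians of -0.16 and -0.27. Without Snrpa1 and Snrpb2 the median of the U1 and U2 proteins in CXCR3- innate cells was 0.00. Without Snrpd2 the Sm core median in CXCR3- innate cells was -0.18, and without Prpf6 the Prp median there was -0.17.

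**Figure D3:**
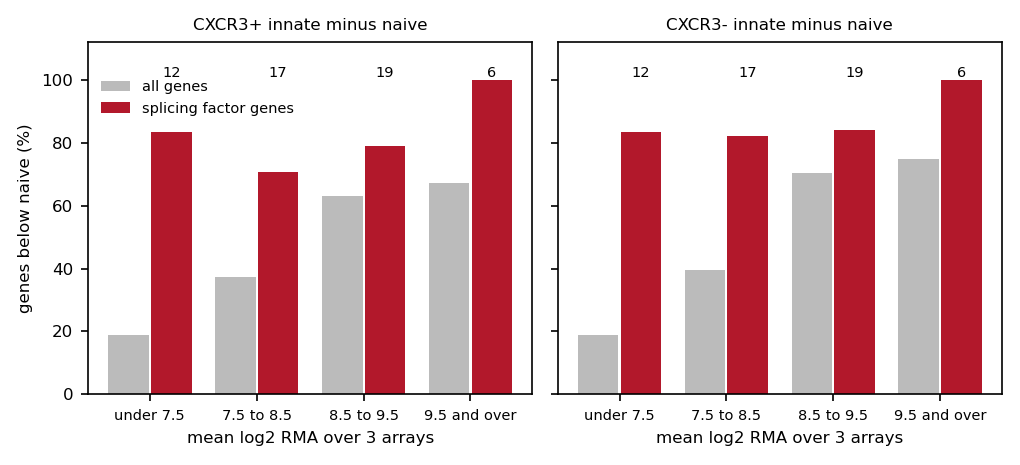
Share of genes below naive in 4 ranges of mean level (log2 RMA over the 3 arrays), for all genes (grey) and the splicing factor genes (red), with the number of splicing factor genes above each pair of bars. The grey share grows with level, and the red share is higher in each range.

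The wider splicing and mRNA processing machinery was read through 173 further genes, of which 127 had a value. They too lay mostly below naive, 91 of 127 in CXCR3+ innate and 105 of 127 in CXCR3- innate cells, where 34.2% and 36.3% of all genes were, at medians of -0.11 and -0.17, and 1 gene was above naive in the latter. At 1.5-fold none was past the threshold in CXCR3+ innate minus naive. In CXCR3- innate minus naive 4 were lower, Zcrb1, Pcbp1, Chtop and Clk1, where 1.6% of all genes were, and none was higher, where 0.0981% were. After quantile normalization 82 and 89 were below naive, beside 45.3% and 41.3% of all genes, with medians of -0.05 and -0.07, and 1 gene was past 1.5-fold. Of the 127 genes, Rbm15 and Rnpc3 reached the table's floor of 7 on the naive array only, which fixed their sign. Lsm3, Slu7 and Pnn were below 7 on the CXCR3- innate array only. The counts and medians of the lists include these genes.

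Among regulators of splice site choice 37 of 45 genes were below naive in CXCR3+ innate and 40 of 45 in CXCR3- innate cells, at medians of -0.15 and -0.20. The second median was -0.08 after quantile normalization. Pcbp1, a poly(C)-binding relative of Hnrnpk, read 8.80 on the CXCR3+ innate array, 8.33 on the CXCR3- one and 9.00 on the naive one, and its paralog Pcbp2 read 10.75, 10.41 and 10.97. Both stepped down with CXCR3- innate lowest. Srrm2, the large speckle scaffold, read 11.03, 11.14 and 11.46, and Matr3, a nuclear matrix RNA-binding protein, 8.78, 8.72 and 9.20. Rbmx had the same value of 7.44 in both innate populations against 7.90 in naive cells, as Hnrnpm did.

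Genes listed for adding phosphate to SR proteins or removing it also lay mostly below naive. Of 9 measured kinase and phosphatase genes 8 were below naive in each innate population, at medians of -0.16 and -0.27. Clk1 read 10.11 on the CXCR3+ innate array, 9.89 on the CXCR3- one and 10.48 on the naive one. Clk4 read 8.67, 8.66 and 9.00, and Dyrk1a 9.50, 9.50 and 9.83. Srpk1, which drives SR proteins into the nucleus, read 9.40, 9.15 and 9.56. Its relative Srpk2 was equal on all 3 arrays, and the phosphatase gene Ppm1g differed from naive by -0.04 and -0.16. The median of the 9 genes in CXCR3- innate cells was -0.14 after quantile normalization.

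Other snRNP proteins also lay mostly below naive. In CXCR3+ innate cells 12 of 18 genes were below naive, with a median of -0.09, and in CXCR3- innate cells 16 of 18, with a median of -0.12. Lsm4 of the Sm-like ring read 9.19 on the CXCR3+ innate array, 8.79 on the CXCR3- one and 9.15 on the naive one, and Lsm3 7.39, 6.95 and 7.40. In both, as in Snrpd3 and Snrpg, only the CXCR3- innate array stood apart, and Lsm3 was under 7 there. Zcrb1, a protein of the minor spliceosome, read 8.39, 8.20 and 8.95, and the U5 helicase Ddx23 read 7.97, 7.68 and 8.24. Assembly of snRNPs was represented by 5 of 15 listed genes. Of these 2 were below naive in CXCR3+ innate and 3 in CXCR3- innate cells, at medians of 0.00 and -0.07. Prmt5, the methyltransferase of Sm proteins, read 8.59, 8.29 and 8.62, and Strap of the SMN complex 8.38, 8.17 and 8.62. Gemin5 and Clns1a were equal on all 3 arrays.

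Later steps of splicing and mRNA processing were read through 3 lists. Splicing helicases and catalytic step factors had 18 of 27 genes below naive in CXCR3+ innate and 20 of 27 in CXCR3- innate cells. The medians were -0.11 and -0.16. Slu7, needed for the second step, was at -0.33 and -0.53, and it was under 7 on the CXCR3- innate array. Syf2 was at -0.46 in both and Ddx42 at -0.26 and -0.50. For the exon junction complex and mRNA export 7 and 8 of 11 genes were below naive, at medians of -0.09 and -0.18. Chtop, an export adaptor, read 8.09 on the CXCR3+ innate array, 8.01 on the CXCR3- one and 8.65 on the naive one, and Nxf1, the export receptor, 9.19, 8.88 and 9.38. Eif4a3, the helicase that anchors the junction complex, was the 1 gene of this list above naive in both comparisons, at 7.44, 7.20 and 7.17. Cleavage and polyadenylation genes had medians of -0.04 and -0.06, with Pcf11 at -0.40 in both and Cpsf6 at -0.33 and -0.29.

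**Figure D4:**
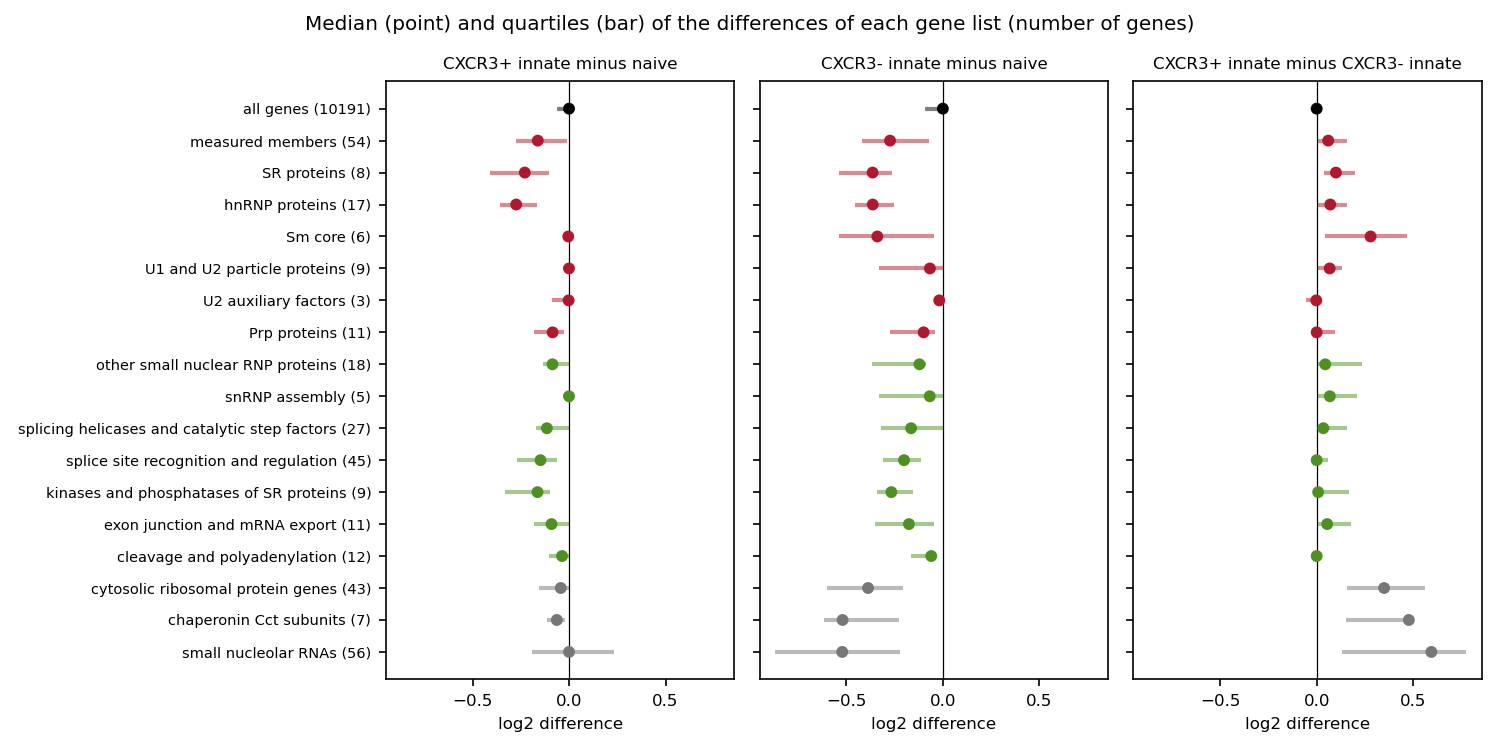
Median (point) and quartiles (bar) of the log2 differences in each gene list, with the number of measured genes in brackets. Black is all genes, red the splicing factor genes and their role groups, green the other splicing and mRNA processing lists, and grey 3 further families. SR and hnRNP genes lie left of 0 in both comparisons with naive cells, while the grey families lie near 0 in the first and far left in the second.

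Other housekeeping families had another profile. Cytosolic ribosomal protein genes had medians of -0.04 in CXCR3+ innate minus naive and -0.39 in CXCR3- innate minus naive over 43 genes, chaperonin Cct subunits -0.06 and -0.52 over 7, and small nucleolar RNAs 0.00 and -0.52 over 56. Between the innate populations the same families had medians of 0.35, 0.48 and 0.59. The 17 hnRNP genes had 0.07 there and the 8 SR genes 0.10, whereas the 6 Sm core genes had 0.28. Over genes at 7 or above on every array, which leaves out Snrpd2, these medians were 0.04, 0.14 and 0.17. The families could not be compared by a test. Among small RNAs that lie within the genes of the set, 1 was measured, the microRNA gene Mir7-1 within Hnrnpk, which read 7.69 on the CXCR3+ innate array, 7.52 on the CXCR3- one and 7.69 on the naive one. Ptprc, which encodes CD45, read 11.28, 11.19 and 11.37 as a whole gene, and a gene-level value holds no information on its exons. Cell division genes were measured for 8 of 14: Pcna read 9.15, 9.02 and 9.26, and Aurkb 7.10, 6.90 and 6.61, and 3 of the 8, Mcm2, Mcm5 and Mcm6, were equal on all arrays.

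Promoters are shown for the 4 genes past 1.5-fold, since these carry the largest differences, and for 3 of the 5 genes that were equal on all arrays. RefSeq windows of GRCm38.p6 were given for 48 of the 54 genes. Of the equal genes, only those with exactly 1 window were taken. Each line holds the 200 bases before the gene's start, 5' to 3' along the gene. The windows are chr12:80945299-80945498 on the plus strand for Srsf5, chr11:116853095-116853294 on the minus strand for Srsf2, chr14:52104022-52104221 on the minus strand for Hnrnpc and chr10:75517842-75518041 on the plus strand for Snrpd3. For the equal genes they are chr11:4160154-4160353 on the plus strand for Sf3a1, chr8:110846804-110847003 on the minus strand for Sf3b3 and chr17:27839887-27840086 on the plus strand for Snrpc. Capitals mark matches, on either strand, to the letters CCAAT for the CCAAT box, GGGCGG for the GC box, CCGGAAG for the core of an ETS site, CACGTG for the E-box, TGACGTCA for the cyclic AMP response element and TATAAA for the TATA box, and to the palindromic NRF1 site, which may overlap, as a GC box and an ETS core do in Srsf5.
Srsf5: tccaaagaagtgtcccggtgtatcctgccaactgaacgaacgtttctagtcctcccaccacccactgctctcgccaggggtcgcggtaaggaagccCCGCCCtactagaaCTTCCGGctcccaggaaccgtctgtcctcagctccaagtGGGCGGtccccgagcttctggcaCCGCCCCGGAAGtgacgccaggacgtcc
Srsf2: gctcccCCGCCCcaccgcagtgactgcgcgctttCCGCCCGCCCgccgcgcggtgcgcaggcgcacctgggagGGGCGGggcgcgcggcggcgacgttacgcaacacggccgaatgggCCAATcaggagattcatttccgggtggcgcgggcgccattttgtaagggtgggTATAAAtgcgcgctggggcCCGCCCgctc
Hnrnpc: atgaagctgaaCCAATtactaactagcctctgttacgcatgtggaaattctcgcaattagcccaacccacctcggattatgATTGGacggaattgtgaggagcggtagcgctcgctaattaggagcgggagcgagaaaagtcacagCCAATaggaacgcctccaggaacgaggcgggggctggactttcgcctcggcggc
Snrpd3: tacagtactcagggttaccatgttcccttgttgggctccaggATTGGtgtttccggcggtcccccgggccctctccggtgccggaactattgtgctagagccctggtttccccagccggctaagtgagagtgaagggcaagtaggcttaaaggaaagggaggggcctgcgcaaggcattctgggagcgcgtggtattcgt
Sf3a1: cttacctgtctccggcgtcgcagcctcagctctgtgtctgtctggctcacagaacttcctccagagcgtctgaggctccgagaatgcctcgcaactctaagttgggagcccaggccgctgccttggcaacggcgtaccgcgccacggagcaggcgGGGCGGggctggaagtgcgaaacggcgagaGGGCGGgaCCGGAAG
Sf3b3: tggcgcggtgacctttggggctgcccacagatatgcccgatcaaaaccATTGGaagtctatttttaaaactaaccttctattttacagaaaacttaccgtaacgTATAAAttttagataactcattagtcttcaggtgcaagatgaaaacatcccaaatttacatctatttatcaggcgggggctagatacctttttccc
Snrpc: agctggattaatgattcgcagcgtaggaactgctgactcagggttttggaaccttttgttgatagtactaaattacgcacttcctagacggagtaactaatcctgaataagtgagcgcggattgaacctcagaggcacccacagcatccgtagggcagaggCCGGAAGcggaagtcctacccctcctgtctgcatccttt

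The lines differ in the letters they hold. Hnrnpc has 3 CCAAT boxes and no GC box, Srsf2 has 1 CCAAT box and 5 GC boxes, Srsf5 has 2 ETS cores and 3 GC boxes, and Snrpd3 has 1 CCAAT box. No motif is common to the 4 genes past 1.5-fold, and the ETS core is also found in Sf3a1 and Snrpc, whose values were equal on all arrays. Within the 250 bases before the start, 28.6% of 63 windows of the splicing factor genes held the ETS core, against 8.98% of 21263 windows of all protein-coding genes. The GC box was found in 66.7% against 42.6%, the CCAAT box in 47.6% against 35.4%, the E-box in 7.94% against 6.63% and the TATA box in 6.35% against 11.6%. The response element and the NRF1 site were each in 1 window of the set, or 1.59%, against 1.92% and 1.07% of all windows. A match is a description of the letters, not of a bound factor.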

How the data were processed

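RNA of 3 sorted CD8+ T cell populations was measured on 1 Affymetrix array each. The deposited log2 values are RMA values (background-corrected, brought to a common distribution and summarised by median polish), for which the submitters' processing notes name Expression Console. The version and any genome build are not given in the sources used here. The deposited table held 12417 probe sets, each with a value of at least 7 on some array. Probe sets with 1 symbol (10576) named genes, 1108 had several symbols and 733 none. Where a gene had several probe sets (273 genes), the gene value was their mean. RefSeq tables of GRCm38.p6 gave gene classes and promoter windows.

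No test was possible with 1 array per group. Differences were described by size (1.5-fold and 2-fold, with the level filter), sign (equal means within 1e-09) and medians. A run on simulated arrays, with differences and noise that were set by hand, checked the calculation only. It does not show how often noise between real arrays passes these sizes. The genes to name were, per role group, the brightest and up to 3 with the largest difference in each comparison, those past 1.5-fold, and Hnrnpll, Snrpn and Ptprc; per further list, up to 3 with the largest difference. Others were named after their values were seen. The set and the lists were chosen with earlier results of these data known, and the level ranges, promoter motifs and alternatives for the list medians after seeing the values. Alternatives were other level filters, thresholds, scalings, a linear offset of 16 and probe set choices. Python 3.11.15, pandas 2.3.3, R 4.3.3 and limma 3.58.1 were used. The number of arrays limits the precision.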

Additional observations from a re-analysis of the deposited data

Results flagged for a closer look

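In 4 genes the innate populations lay on opposite sides of naive cells. Snrpb2 was 0.06 above naive in CXCR3+ innate and 0.33 below in CXCR3- innate cells, so that the innate populations differed by 0.39. For Lsm4 they differed by 0.40, for Mbnl3, a splicing regulator of the muscleblind family, by 0.22, and for the helicase gene Ddx39b by 0.066. With 1 array per population the difference was not tested, and the values above naive, from 0.01 to 0.06, are small.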

How the results depend on the processing

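Between 1 and 6 genes were past 1.5-fold in CXCR3- innate minus naive. The count of 4 became 1 after quantile normalization, 1 after cyclic loess and 1 after centring on the median. No gene of the set was past 2-fold or 3-fold under any alternative run. The median of the set kept its sign under each alternative, and it was -0.38 in CXCR3- innate minus naive over the genes above the filter at the 75th percentile. That filter leaves fewer genes, of which 25 were below 0 in CXCR3+ innate minus naive, 27 in CXCR3- innate minus naive and 4 between the innate populations. The share of all genes past that filter is not given here, so these counts are not read as a result about the set. Bright genes in general lay mostly below naive. With a mean level of 8.5 to 9.5, 63.2% of all genes did in CXCR3+ innate and 70.4% in CXCR3- innate cells. Between the innate populations 23 genes of the set were below 0 after centring on the median, against 9 as deposited. The count was 17 after cyclic loess and 24 after quantile normalization. The share of all genes below 0 moved too, from 22.3% as deposited to 73.6%, 42.7% and 65.7% in the same order of scalings. Quantile normalization also moved list medians of CXCR3- innate minus naive, to -0.25 for hnRNP genes, -0.14 for kinases and phosphatases of SR proteins and -0.080 for regulators of splice site choice; the cause was not tested. Of the other counts and medians compared for the set and the lists, 314 stayed within the limits set. Values of single named genes and of all genes moved past the limits in 46 cases, 44 of them after quantile normalization. In CXCR3- innate minus naive, for example, Srsf2 went from -0.588 to -0.373 under that scaling, and Hnrnpab from -0.584 to -0.395. No paired analysis was possible because each population has 1 array. Equal values after RMA limit what small differences can show.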
